A study of Mus musculus with 24 samples.

Results

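The E2F transcription factors and the pocket proteins that bind them were followed in sorted thymocytes as 10 listed genes, *E2f1*, *E2f2*, *E2f3*, *E2f4*, *E2f6*, *E2f7*, *E2f8*, *Rb1*, *Rbl1* and *Rbl2*, of 18193 genes that had a probe set of their own on the array. Each gene was represented by its brightest probe set over the 24 arrays, and all 10 passed the filter on low signals. The genes had 21 probe sets of the 45101 on the array, of which 17 passed, and the others served as a check.

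The arrays were Affymetrix mouse expression arrays, with 1 array for each pool of mice and each stage of CD4 CD8 double-negative (DN) thymocyte. The first genotype was *IgHμ-TLX1Tg Prkdc Scid/Scid* (TLX1; HOX11 positive in the labels), in which the human homeobox oncogene TLX1 is driven by the immunoglobulin heavy chain promoter, which is mainly active in B cells and leaks into thymocytes. The second was *Prkdc Scid/Scid* (control; HOX11 negative). Both genotypes thus carried the scid mutation of *Prkdc*, the DNA-dependent protein kinase needed to join antigen receptor gene segments, and per the labels both were outbred ICR mice aged 6 to 8 weeks. The study's methods include younger mice for some pools, and describe the transgenic line as bred onto CD1 before it was crossed to the scid strain. There were 4 pools of 2 to 5 mice per genotype, and each pool was sorted as B220- CD3- cells into DN1 (CD44+ CD25-), DN2 (CD44+ CD25+) and DN3 (CD44- CD25+). Mice were female in TLX1 pools 1 and 4 and in control pools 2 and 4, and male in the remaining 4.

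E2F proteins bind short GC-rich sites in promoters, mostly as heterodimers with a DP partner, and set the transcription of genes for DNA replication and mitosis. *E2f1*, *E2f2* and *E2f3* are usually classed as activators, *E2f4* as a repressor that acts through pocket proteins, *E2f6* as a repressor that works with Polycomb proteins, and *E2f7* and *E2f8* as atypical repressors that bind DNA without a DP partner. The pocket proteins pRB (*Rb1*), p107 (*Rbl1*) and p130 (*Rbl2*) hold E2Fs in check until cyclin-dependent kinases phosphorylate them. p130 is typical of resting cells, where it forms the DREAM complex with E2F4 and the MuvB proteins, and p107 is itself an E2F target of cycling cells. Early thymocytes divide repeatedly at DN2 before they slow at DN3, where rearrangement of the T cell receptor β gene takes place. Scid thymocytes largely stop there.

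The promoters shown are those of the members that passed the test between DN2 and DN1 and had a promoter window, *E2f1*, *E2f3*, *E2f6*, *E2f7*, *Rbl1* and *Rbl2*, and of *E2f8*, which passed it only under some alternatives, because E2F sites are a textbook property of several genes of the family. RefSeq promoter windows (GRCm38.p6, from 250 bases before to 50 bases after the annotated start) were found for 8 of the 10 genes, in 10 windows. The 7-letter E2F motif was searched as TTCCCGC with the variants spelled TTCGCGC or else TTGCCGC or finally TTGGCGC, and the cell cycle homology region (CHR) motif as TTTGAA, each on both strands, with no overlap between the motifs. An E2F motif stood in 5 of the 10 windows and in 9.57% of the 32851 windows of all genes, and 2 windows held at least 2 of them, against 1.10% of all windows. CHR stood in 4 of the 10 windows and in 17.9% of all. The 250 bases before the start are printed 5′ to 3′ on the strand of the gene, with E2F motifs in capitals.
*E2f1* (chr2:154569427-154569676, minus strand): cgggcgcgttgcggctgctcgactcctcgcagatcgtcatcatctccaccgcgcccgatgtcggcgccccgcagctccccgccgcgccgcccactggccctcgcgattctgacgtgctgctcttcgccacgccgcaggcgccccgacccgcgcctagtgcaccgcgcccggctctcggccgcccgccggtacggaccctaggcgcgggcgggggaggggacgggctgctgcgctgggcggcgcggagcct
*E2f3* (chr13:29986064-29986313, minus strand): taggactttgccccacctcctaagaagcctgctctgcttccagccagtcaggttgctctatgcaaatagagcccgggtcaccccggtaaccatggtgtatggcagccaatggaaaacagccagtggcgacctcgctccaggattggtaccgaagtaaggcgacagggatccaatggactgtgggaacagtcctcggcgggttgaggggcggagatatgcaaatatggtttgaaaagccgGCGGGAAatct
*E2f6* (chr12:16810715-16810964, plus strand): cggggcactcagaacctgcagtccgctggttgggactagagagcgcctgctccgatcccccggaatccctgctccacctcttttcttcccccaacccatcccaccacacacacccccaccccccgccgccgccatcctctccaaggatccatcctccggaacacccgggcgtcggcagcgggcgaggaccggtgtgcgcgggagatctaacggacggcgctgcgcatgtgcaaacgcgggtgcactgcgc
*E2f7* (chr10:110745189-110745438, plus strand): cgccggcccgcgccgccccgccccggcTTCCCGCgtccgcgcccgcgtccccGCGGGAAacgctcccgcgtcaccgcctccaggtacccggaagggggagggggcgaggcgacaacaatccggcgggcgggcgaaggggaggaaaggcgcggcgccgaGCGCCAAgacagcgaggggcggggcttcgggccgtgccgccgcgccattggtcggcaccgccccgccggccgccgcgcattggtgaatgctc
*E2f8* (chr7:48881597-48881846, minus strand): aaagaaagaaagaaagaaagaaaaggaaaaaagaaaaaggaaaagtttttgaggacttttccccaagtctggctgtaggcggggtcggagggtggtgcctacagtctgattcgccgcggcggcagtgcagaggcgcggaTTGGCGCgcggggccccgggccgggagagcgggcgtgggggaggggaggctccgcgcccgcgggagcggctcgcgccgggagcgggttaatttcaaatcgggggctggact
*Rbl1* (chr2:157204535-157204784, minus strand): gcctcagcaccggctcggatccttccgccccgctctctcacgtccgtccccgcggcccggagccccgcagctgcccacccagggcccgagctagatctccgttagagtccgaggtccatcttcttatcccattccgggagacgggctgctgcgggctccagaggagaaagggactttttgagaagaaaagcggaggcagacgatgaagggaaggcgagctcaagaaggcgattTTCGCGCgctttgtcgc
*Rbl2* (chr8:91069807-91070056, plus strand): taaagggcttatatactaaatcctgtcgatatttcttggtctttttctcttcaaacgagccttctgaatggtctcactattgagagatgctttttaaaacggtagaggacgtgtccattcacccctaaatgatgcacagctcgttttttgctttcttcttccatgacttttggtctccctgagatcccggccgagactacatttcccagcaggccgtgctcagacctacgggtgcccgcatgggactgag
*E2f7* had 3 E2F motifs, *E2f8* and *Rbl1* had 1 each, and *E2f3* had 1 before its start and 1 more after it. *E2f8* and *E2f3* also held CHR near the start, at bases -20 to -15 and -23 to -18. *Rbl2* had no E2F motif, and its CHR lay at bases -201 to -196. The windows of *E2f1* and *E2f6* held neither motif. Each of these 2 genes had a window at only 1 annotated start, which need not be its main promoter. Sequence around other starts was not searched, so a lack of motifs here does not extend to the gene. For *E2f3* the first of 2 windows is shown, and the other held neither motif. Of the windows of *E2f2*, which are not shown, 1 held an E2F motif just after the start and the other held CHR. A match is a run of letters and not a measured site, and no binding was assayed.

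The sorted fractions were set against genes of their gates. Over the 8 pools *Il2ra*, which encodes CD25, was higher at DN2 than at DN1 by 2.92 on the log2 scale, and *Cd44* differed by -3.72 although both gates take CD44+ cells. DN1 also held transcripts of other lineages. The summed signal of 4 natural killer (NK) cell markers (*Ncr1*, *Klrd1*, *Klre1* and *Gzmb*) was 109 to 149 in TLX1 DN2 pools and 124 to 221 in control DN2 pools, against 6820.0 to 13058 in TLX1 DN1 pools and 4945 to 13889 in control DN1 pools. Myeloid markers summed to 851 to 971 in TLX1 DN2 pools and 881 to 991 in control DN2 pools, against 1956 to 10893 in TLX1 DN1 pools and 2627 to 5104 in control DN1 pools. Control pool 3 and TLX1 pool 2, which by the study's description had the most cells outside the gates, also stood apart in *Cd4*, *Cd8a* and *Cd8b1*, markers of later thymocytes. Their sum in TLX1 pool 2 was 3654, 158 and 354 at DN1, DN2 and DN3, and in control pool 3 it was 3934, 375 and 1388. The other 6 pools lay at 149.7 to 532 at DN1, 8.86 to 19.6 at DN2 and 13.8 to 19.4 at DN3. Results are therefore given with and without these 2 pools where they differ. In sorted bulk cells, fewer cells of a type and less RNA per cell cannot be told apart.

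Most differences of the family that passed the test lay between DN1 and DN2. Over the 8 pools, 5 genes were higher at DN2 than at DN1 and 2 were lower, with an adjusted p under 0.05 by limma. *E2f1*, *E2f3*, *E2f6*, *E2f7* and *Rbl1* rose, by 1.30-fold to 2.03-fold, and *Rb1* and *Rbl2* fell. Of all 27022 probe sets tested, 59.7% were called in this comparison, 28.5% higher and 31.2% lower, so the members' 7 of 10 lay near the background. Higher probe sets made up 47.7% of these calls, 58.7% after quantile normalization and 74.0% after median centring, and none of the 7 members changed direction under either. The median difference was 0.39 for the 10 genes and -0.06 for all probe sets on the log2 scale. *E2f3*, *E2f6* and *Rbl1* were higher at DN2 in all 8 pools and *Rb1* and *Rbl2* were lower in all 8, and 36.8% of all probe sets moved one way in all 8 pools. Without control pool 3 and TLX1 pool 2, 8 members were called, 6 higher and 2 lower, where 62.0% of all probe sets were called, 30.3% higher and 31.7% lower.

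**Figure D1:**
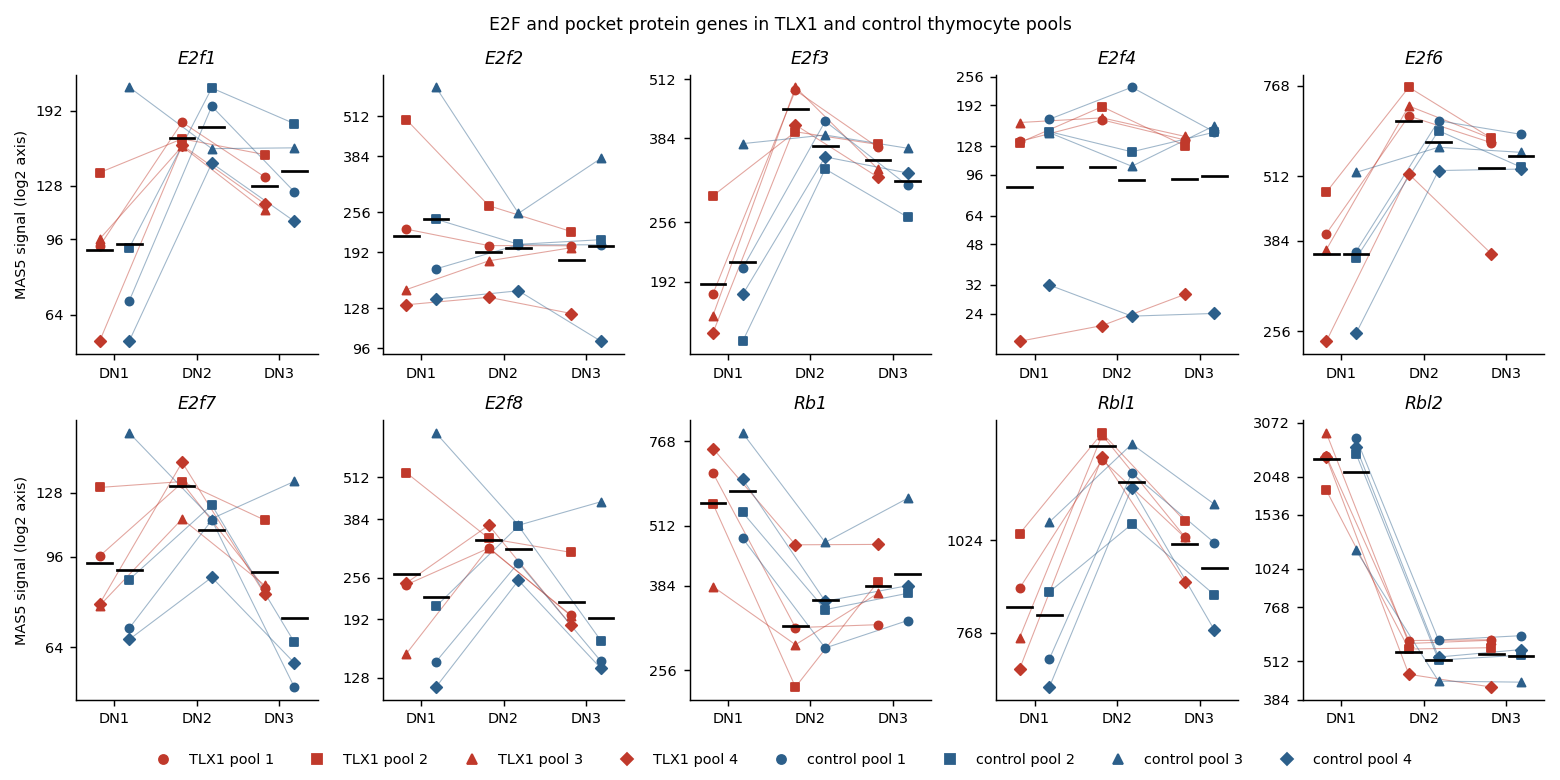
MAS5 signal (log2 axis) of the main probe set of each gene on the 24 arrays, by stage, with TLX1 pools (red) left of control pools (blue), lines joining the arrays of 1 pool and bars at the mean of the log2 signals of 4 pools. *Rbl2* lay at 1177 or more on every DN1 array and at 621 or less on all others, and pool 4 of both genotypes was at 18.2 to 31.97 for *E2f4*, where the other arrays were at 105 to 230.3.

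Among the activators, *E2f3* had the largest difference. Its signals at DN1 were 181, 291, 163 and 149.8 in TLX1 pools 1 to 4 and 205, 144, 374 and 180.3 in control pools 1 to 4. At DN2 they were 485, 397, 492 and 409.9 in TLX1 and 417, 331, 390.4 and 351 in control pools. At DN3 they were 368, 373, 331 and 318 in TLX1 and 306, 262, 366 and 325 in control pools. Only the DN1 array of control pool 3 reached the DN2 range, and the DN3 signals lay above all DN1 signals but the 2 of TLX1 pool 2 and control pool 3. *E2f3* was 2.03-fold higher at DN2 than at DN1 (log2 difference 1.02, SE 0.13, adjusted p 1.44e-05). A dim second probe set, with signals of 14.2 to 57.2, had a difference of -0.00 (adjusted p 0.992).

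*E2f1* was 1.85-fold higher at DN2 than at DN1 (log2 difference 0.89, SE 0.19, adjusted p 0.000961). At DN1 it stood at 92.5, 137, 96.1 and 55.4 in TLX1 pools 1 to 4 and at 68.9, 91.7, 218 and 55.5 in control pools. At DN2 it stood at 180.4, 165, 158 and 159 in TLX1 and at 197, 217, 156 and 145 in control pools. The stages did not overlap apart from control pool 3, the only pool in which *E2f1* was lower at DN2 (-0.48), while the other 7 gave differences of 0.26 to 1.52. Without control pool 3 and TLX1 pool 2 the difference was 1.22 (SE 0.11, adjusted p 4.38e-06). The second probe set of the gene gave 0.77 (adjusted p 0.00193). At DN3 *E2f1* signals were 134, 152, 112 and 116 in TLX1 and 124, 179, 157 and 106 in control pools, and these overlapped both earlier stages.

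*E2f2* behaved differently in the same cells. Its medians over the 8 pools were 198, 202 and 202 at DN1, DN2 and DN3, and DN2 differed from DN1 by -0.24 (SE 0.18, 95% interval -0.62 to 0.13, adjusted p 0.253). At DN2 its signals were 201, 268, 180.3 and 139 in TLX1 pools 1 to 4 and 203, 203, 254 and 145 in control pools. At DN3 they were 201, 223, 198 and 123 in TLX1 and 202, 210.0, 378 and 101 in control pools. Pool 4 was the lowest of its genotype at each stage. The 2 pools with signal of later thymocytes had the highest DN1 values, 499.9 in TLX1 pool 2 and 631 in control pool 3, where the other 6 pools were at 131 to 243. Without both pools the difference was 0.05 (SE 0.11, adjusted p 0.739). The part of later thymocytes in these values was not tested.

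The repressor *E2f6* was 1.73-fold higher at DN2 (log2 difference 0.79, SE 0.09, adjusted p 5.62e-06). It had medians of 367, 642 and 582 at DN1, DN2 and DN3. Its DN1 signals were 396, 477, 369 and 245 in TLX1 and 366, 355, 521 and 254 in control pools, and its DN2 signals were 670.3, 762, 701 and 517 in TLX1 and 656, 628, 583 and 525 in control pools. The ranges of the stages met only in DN1 of control pool 3 and DN2 of TLX1 pool 4. At DN3 *E2f6* stood at 595, 607, 606 and 362 in TLX1 and at 618, 533, 569.9 and 529 in control pools, so only TLX1 pool 4 lay in the DN1 range.

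*E2f4* showed no such step. Its DN1 signals were 134, 132, 162 and 18.2 in TLX1 pools 1 to 4 and 167, 148, 146 and 31.97 in control pools. At DN2 they were 166, 189.6, 169.6 and 21.3 in TLX1 and 230.3, 121, 105 and 23.4 in control pools. At DN3 they were 136, 129, 141 and 29.1 in TLX1 and 147, 147, 157 and 24.1 in control pools. Pool 4 of each genotype was low at every stage, and the stages of the other pools overlapped. *E2f4* differed by 0.05 between DN2 and DN1 (SE 0.13, 95% interval -0.24 to 0.33, adjusted p 0.788). With each array centred on its median *E2f4* was called at 0.39 (adjusted p 0.0283), a setting in which the median of all probe sets lay at 0.29.

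The atypical repressors *E2f7* and *E2f8* were both highest of their genotype in TLX1 pool 2 and control pool 3 at DN1 and DN3. At DN2 this held only for *E2f8* in control pool 3. *E2f7* signals at DN1 were 96.3, 131, 77.1 and 77.7 in TLX1 pools 1 to 4 and 69.7, 86.7, 167 and 66.3 in control pools. At DN2 they were 134, 135, 114 and 147 in TLX1 and 113, 121, 114 and 87.5 in control pools. At DN3 they were 83.4, 113, 84.5 and 81.2 in TLX1 and 53.5, 65.4, 135 and 59.6 in control pools. Every pool but control pool 3 was higher at DN2 than at DN1 and lower at DN3 than at DN2. The DN2 difference from DN1 was 0.38 (SE 0.13, adjusted p 0.0247), or 1.30-fold, and this call was lost when any 1 of the other 6 pools was left out (TLX1 pools 1, 3 and 4, control pools 1, 2 and 4; adjusted p 0.0539 to 0.0929). Without TLX1 pool 2 and control pool 3 it was 0.59 (SE 0.09, adjusted p 0.000197).

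*E2f8* signals at DN1 were 243, 529, 151 and 246 in TLX1 and 143, 209.6, 697 and 119.9 in control pools. At DN2 they were 314, 336, 315 and 368 in TLX1 and 284, 366, 368 and 251 in control pools. At DN3 they were 197, 305, 196 and 184 in TLX1 and 143, 165, 433 and 136 in control pools. TLX1 pool 2 and control pool 3 were highest at DN1 and lower at DN2, by -0.66 and -0.92, while the other 6 pools were higher at DN2 by 0.37 to 1.07. Over all 8 pools the DN2 difference from DN1 was 0.41 (SE 0.21, 95% interval -0.03 to 0.86, adjusted p 0.103). It passed the test at 0.58 without TLX1 pool 2 (adjusted p 0.0304), at 0.65 without control pool 3 (adjusted p 0.00356) and at 0.81 without both (SE 0.11, adjusted p 0.000113). With all 8 pools it also passed at 0.76 under median centring (adjusted p 0.00636). With the 3′ to 5′ signal difference of the array controls as a covariate it passed at 0.82 (adjusted p 0.00119). The part of later thymocytes in the values of TLX1 pool 2 and control pool 3 was not tested.

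**Figure D2:**
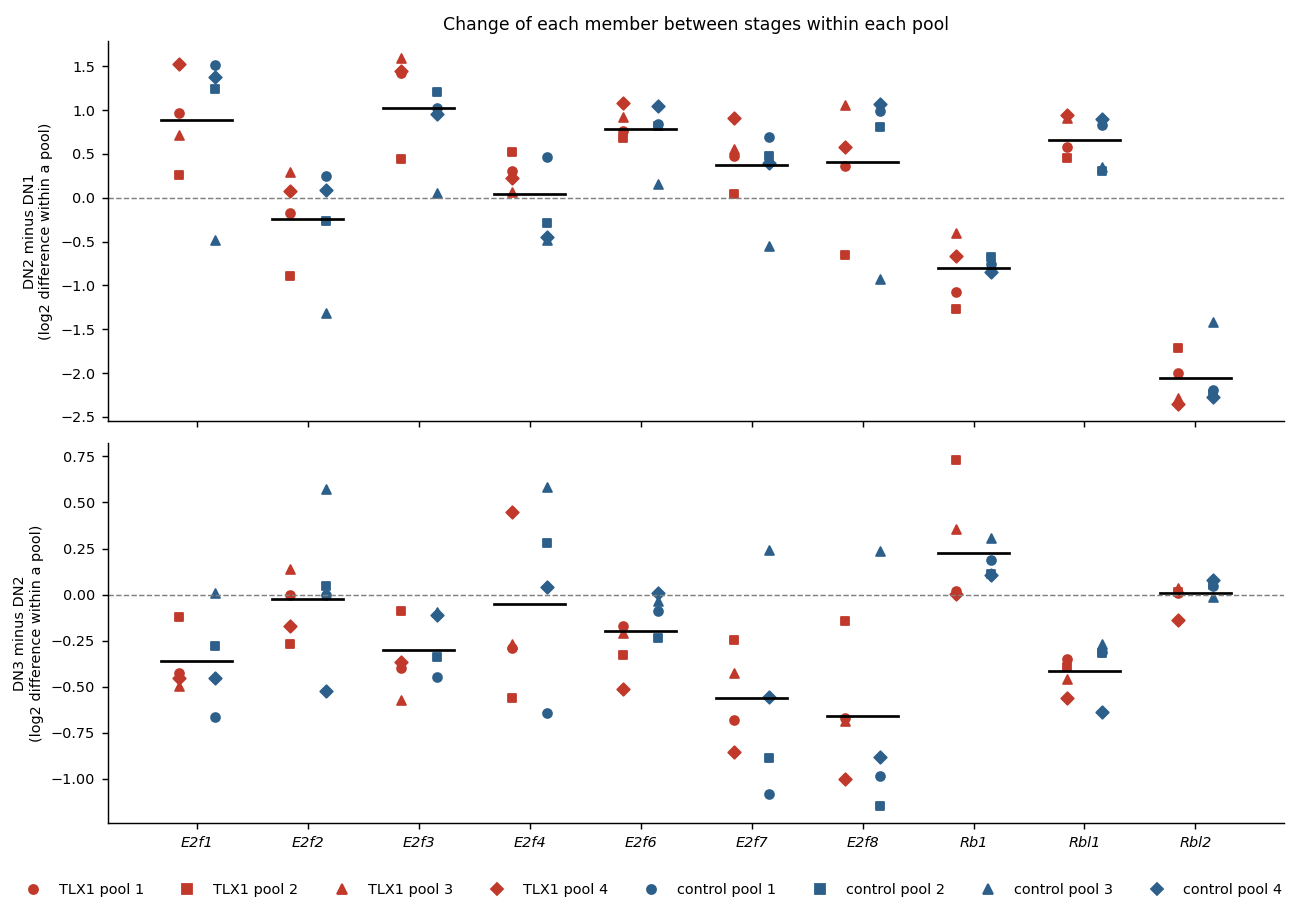
Difference in log2 signal within each pool, DN2 minus DN1 (top) and DN3 minus DN2 (bottom), with TLX1 pools (red) left of control pools (blue) and bars at the mean of 8 pools. *Rbl2* was lower at DN2 in all 8 pools, by -1.42 to -2.35, and control pool 3 was the only pool with a higher *E2f7* and *E2f8* signal at DN3 than at DN2 (0.24 for both).

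The pocket protein genes moved in opposite directions. *Rbl1* (p107) had DN1 signals of 883, 1045, 757 and 687 in TLX1 pools 1 to 4 and 708, 872, 1084 and 649 in control pools. The DN2 signals were 1316, 1429.6, 1421 and 1326 in TLX1 and 1262, 1077, 1381 and 1206 in control pools. The DN3 signals were 1034, 1088, 1036 and 899 in TLX1 and 1016, 864, 1146 and 775 in control pools. DN1 and DN2 overlapped only in the DN1 array of control pool 3 and the DN2 array of control pool 2. *Rbl1* was 1.58-fold higher at DN2 (log2 difference 0.66, SE 0.08, adjusted p 1.02e-05). A second probe set gave 0.72 (adjusted p 0.000257), and another dim one with signals of 1.17 to 32.7 gave -0.61 (adjusted p 0.16).

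*Rbl2* (p130) had the largest difference of the family. At DN1 its signals in the TLX1 pools were 2389, 1848, 2842 and 2368, and those in the control pools 2741, 2435, 1177 and 2561. In DN2 cells it had 598, 562, 586 and 465 in TLX1 and 601, 517, 441 and 529 in control pools. In DN3 cells it had 602, 567, 599.7 and 422 in TLX1 and 621, 536, 438 and 559 in control pools. Every DN2 and DN3 array lay below every DN1 array. *Rbl2* fell by 2.06 on the log2 scale at DN2 (SE 0.11, adjusted p 1.73e-09), so the signal was 4.16-fold higher at DN1. The second probe set gave -2.42 (adjusted p 6.45e-10). The NK marker sum was lowest at DN1 in the pools with the lowest *Rbl2*, at 4945 in control pool 3 and 6820.0 in TLX1 pool 2, and was 9946 to 13889 in the other 6 pools, in which *Rbl2* was 2368 to 2842. The part of NK cells in the DN1 level of *Rbl2* was not tested.

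*Rb1* itself was 1.75-fold higher at DN1 than at DN2 (log2 difference of DN2 from DN1 -0.81, SE 0.10, adjusted p 9.48e-06). Its DN1 signals were 659, 569, 382 and 741 in TLX1 and 482, 545, 798 and 639.8 in control pools. At DN2 they were 314, 236, 289 and 467 in TLX1 and 285, 342, 473 and 356 in control pools. The lowest DN1 array, of TLX1 pool 3, lay within the DN2 range, but each pool was lower at DN2 than at DN1. A second probe set differed by -1.15 (adjusted p 8.3e-05). At DN3 the *Rb1* signals were 318, 391, 370.0 and 468 in TLX1 and 325, 370.1, 584 and 384 in control pools, a range that overlapped that of DN2.

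**Figure D3:**
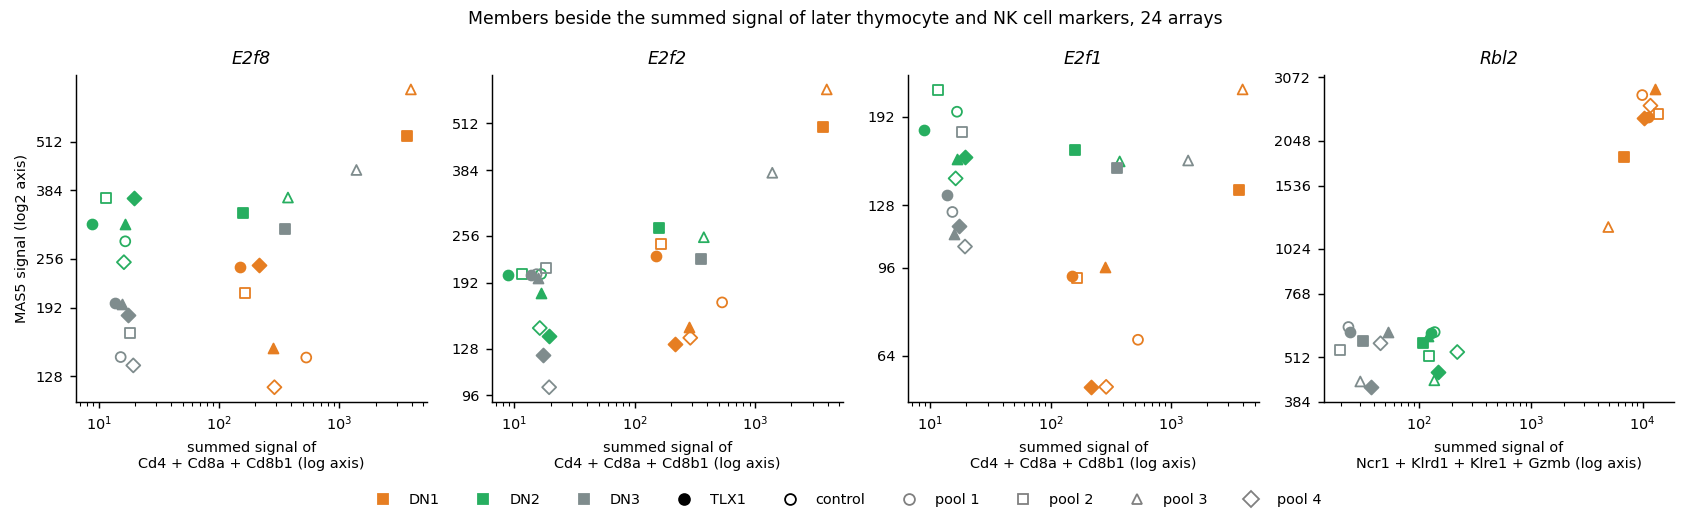
MAS5 signal of *E2f8*, *E2f2* and *E2f1* (log2 axis) against the summed signal of *Cd4*, *Cd8a* and *Cd8b1*, and of *Rbl2* against the summed signal of 4 NK cell markers (log axes), on 24 arrays coloured by stage, with TLX1 pools filled and control pools open. At DN1 the marker sums of later thymocytes of 3654 (TLX1 pool 2) and 3934 (control pool 3) went with the highest *E2f8*, *E2f2* and *E2f1* signals of that stage, and *Rbl2* was lowest in the same 2 pools.

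Between DN2 and DN3 fewer members passed the test. Of the 10 genes, 2 fell (*E2f7* and *Rbl1*) and none rose, where 11.0% of all probe sets were called, 6.93% higher and 4.07% lower. Higher probe sets made up 63.0% of the calls, 45.7% after quantile normalization and 18.8% after median centring, and both genes were lower under each. The median difference was -0.25 for the 10 genes and 0.08 for all probe sets. *Rbl1* differed by -0.27 to -0.64 within the 8 pools, each lower at DN3 than at DN2. Its mean difference was -0.41 (SE 0.08, adjusted p 0.00738), which lost the call when the median of its probe sets was used (adjusted p 0.0815) or the pool was not blocked (adjusted p 0.0607). *E2f7* differed by -0.56 (SE 0.13, adjusted p 0.0174), and this call was lost without TLX1 pool 1 or 4 or control pool 1, 2 or 4 (adjusted p 0.0514 to 0.0687). *E2f3* and *Rbl1* were lower and *Rb1* was higher at DN3 in all 8 pools, and 16.4% of all probe sets moved one way in all 8.

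Without control pool 3 and TLX1 pool 2, 5 of the 10 genes fell between DN2 and DN3, where 16.3% of all probe sets were called, 8.99% higher and 7.30% lower. These were *E2f8* at -0.90 (SE 0.11, adjusted p 0.00161), *E2f7* at -0.75 (adjusted p 0.00121), *E2f1* at -0.46 (adjusted p 0.0187), *Rbl1* at -0.44 (adjusted p 0.0126) and *E2f3* at -0.37 (adjusted p 0.00625). Over all 8 pools *E2f8* differed by -0.66 (adjusted p 0.0555), *E2f1* by -0.36 (adjusted p 0.226) and *E2f3* by -0.30 (adjusted p 0.154). *Rbl2*, in contrast to its step between DN1 and DN2, differed by 0.01 between DN3 and DN2 (SE 0.11, 95% interval -0.21 to 0.24, adjusted p 0.956). *Rb1* differed by 0.23 (adjusted p 0.155), *E2f6* by -0.20 (adjusted p 0.186), *E2f4* by -0.05 (adjusted p 0.832) and *E2f2* by -0.03 (adjusted p 0.938).

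By median signal over the 8 pools, *E2f1*, *E2f3*, *E2f6* and *Rbl1* had the order DN1, DN3, DN2 from low to high, at 92.1, 129 and 162 for *E2f1* and at 814, 1025 and 1321 for *Rbl1*. The difference between DN3 and DN2 passed the test for *Rbl1* and not for *E2f1*, *E2f3* and *E2f6*. *E2f7* had nearly the same median at DN1 (82.2) and DN3 (82.3), below that at DN2 (118), and *E2f8* had its lowest median at DN3 (189.8), with 227 at DN1 and 325 at DN2. *Rb1* and *Rbl2* had the reverse order, with DN2 lowest at 328 and 545, then DN3 at 377 and 563, with no difference from DN2 that passed the test, and DN1 highest at 604 and 2412.

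The genes around the family are given from 5 lists. Of the S phase targets of E2F, all 24 measured genes of 26 listed rose between DN1 and DN2, with a median of 1.19, where 28.5% of all probe sets rose and their median was -0.06. Among them, *Gins2*, of the replicative helicase, rose 3.04-fold, *Ung*, the uracil DNA glycosylase, 2.71-fold and *Cdt1*, the licensing factor, 1.82-fold. Of the mitotic genes that DREAM represses through CHR, all 14 measured of 15 listed rose, with a median of 0.93. *Ttk* and *Aurkb*, mitotic kinases, rose by 1.22 each and *Cenpe*, a kinetochore motor, by 1.04. E2F motifs stood in 16 of the 23 promoter windows of the S phase list (69.6%) and in 3 of 13 of the mitotic list (23.1%), and CHR in 2 of 23 (8.70%) and 9 of 13 (69.2%).

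Between DN2 and DN3 every measured gene of both lists had a negative difference, with medians of -0.37 for the S phase list and -0.59 for the mitotic list, but only *Cdt1* (-0.37, adjusted p 0.0225) and *Mki67* (-0.51, adjusted p 0.0452) passed the test, where 4.07% of all probe sets fell and their median was 0.08. Without control pool 3 and TLX1 pool 2, 14 of the 24 S phase genes and 14 of the 14 mitotic genes fell, where 7.30% of all probe sets did. Without control pool 3 alone these counts were 9 and 12, where 1925 of all 27022 probe sets fell.

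For the partners and regulators of E2F the counts are set against the 28.5% of all probe sets that rose and the 31.2% that fell between DN1 and DN2. Of 10 genes for DP partners and MuvB proteins with *E2f5*, *Mybl2* and *Foxm1*, 5 rose and 1 fell, a share of calls near that of all probe sets. *Tfdp1* and *Tfdp2*, which encode DP partners, rose by 1.05 and 0.91 and *Rbbp4*, a histone-binding MuvB subunit, by 0.38, while *E2f5*, a repressor close to *E2f4*, fell by 0.47. Of 9 measured genes for the Polycomb complex PRC1.6, with which E2F6 works, 4 rose and none fell, with *Hdac2*, a histone deacetylase, at 0.83, *Mga*, a MAX partner, at 0.50 and *Pcgf6*, its Polycomb ring finger subunit, at 0.36. Of 15 genes for kinases, cyclins and inhibitors of G1, 8 rose and 6 fell. *Cdk6* and *Cdk4*, the kinases that phosphorylate pocket proteins, rose by 1.52 and 1.19, and *Cdkn1a*, the inhibitor p21, rose by 3.17, or 9.01-fold. The 6 that fell were the D cyclin genes *Ccnd1* (-1.47), *Ccnd2* (-0.55) and *Ccnd3* (-0.60) and the inhibitor genes *Cdkn1b* (-1.17), *Cdkn2c* (-0.90) and *Cdkn2d* (-0.84). Between DN2 and DN3, *Ccne1*, cyclin E1, fell by 0.74 (adjusted p 0.0136), *Cdk4* fell by 0.35 (adjusted p 0.0307) and *Mga* rose by 0.39 (adjusted p 0.0384).

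**Figure D4:**
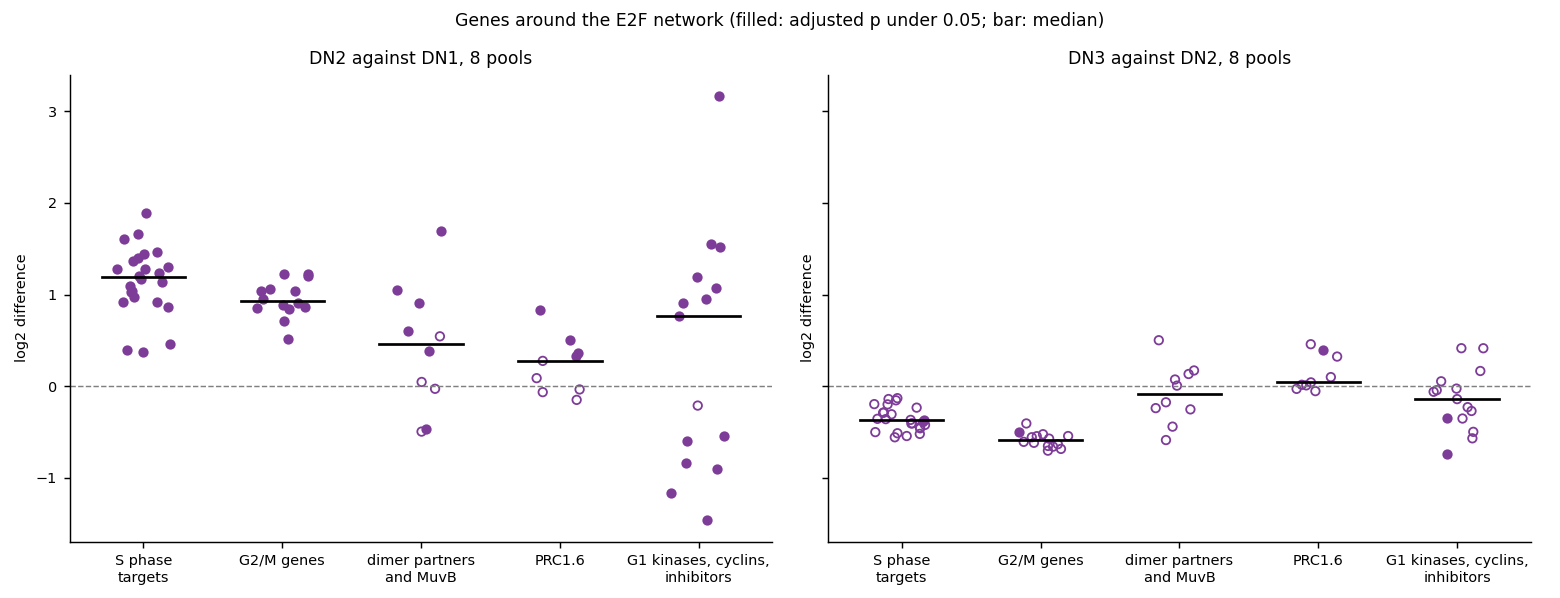
Log2 difference of each measured gene of 5 lists, DN2 against DN1 (left) and DN3 against DN2 (right), over 8 pools, with an adjusted p under 0.05 filled, other genes open and bars at the median of a list. All 24 S phase targets and all 14 G2/M genes were higher at DN2 than at DN1, and 1 of each list passed the test between DN3 and DN2.

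The effect of TLX1 was asked at each stage by setting 4 TLX1 pools against 4 control pools. None of the 10 genes passed the test at any stage, and none reached an unadjusted p under 0.05. By limma, 0.00370% of all probe sets were called at DN1, 0.00370% at DN2 and 0.0185% at DN3, and 1.72%, 3.53% and 6.02% had an unadjusted p under 0.05. On the main probe sets, TLX1 and control pools overlapped for every member at every stage. Of all probe sets, 1.25%, 2.75% and 3.89% did not overlap at DN1, DN2 and DN3.

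The precision differed between members. At DN2 *E2f7* differed by 0.28 (SE 0.15, 95% interval -0.07 to 0.63), *E2f3* by 0.26 (SE 0.14, -0.07 to 0.58) and *Rbl1* by 0.16 (SE 0.13, -0.13 to 0.45). The precision was much the same there for *Rbl2* (0.08, SE 0.15), *E2f6* (0.14, SE 0.16), *E2f1* (-0.09, SE 0.16) and *E2f8* (0.09, SE 0.16). At DN1 the intervals of *Rbl1* and *Rbl2* were -0.48 to 0.55 and -0.53 to 0.81, around 0.04 and 0.14, and those of *E2f1* and *E2f8* were wider, at -1.07 to 0.98 and -1.11 to 1.58. The second probe set of *Rbl1* gave -0.35, -0.18 and -0.26 at DN1, DN2 and DN3, where the main one gave 0.04, 0.16 and 0.11. That of *Rbl2* gave 0.44, 0.45 and 0.39, where the main one gave 0.14, 0.08 and 0.02. None of these second probe set values had an unadjusted p under 0.05 by limma. *E2f4* could hardly be compared, with an interval of -2.10 to 1.53 at DN1, since pool 4 of both genotypes stood far below the rest. At DN3 the largest difference was that of *E2f7*, at 0.30 (SE 0.29, 95% interval -0.37 to 0.97). Signals of *E2f7* at DN3 were 83.4, 113, 84.5 and 81.2 in TLX1 pools, against 53.5, 65.4, 135 and 59.6 in control pools, so that the 4 TLX1 pools lay above all control pools but pool 3. Without control pool 3 and TLX1 pool 2 the difference was 0.48 (SE 0.15, adjusted p 0.9995). That of *E2f8* at DN3 went from 0.16 (SE 0.38) to 0.38 (SE 0.15, adjusted p 0.9995) without them. At DN1 the *E2f8* difference went from 0.23 (SE 0.59) to 0.44 (SE 0.30, adjusted p 0.9998).

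**Figure D5:**
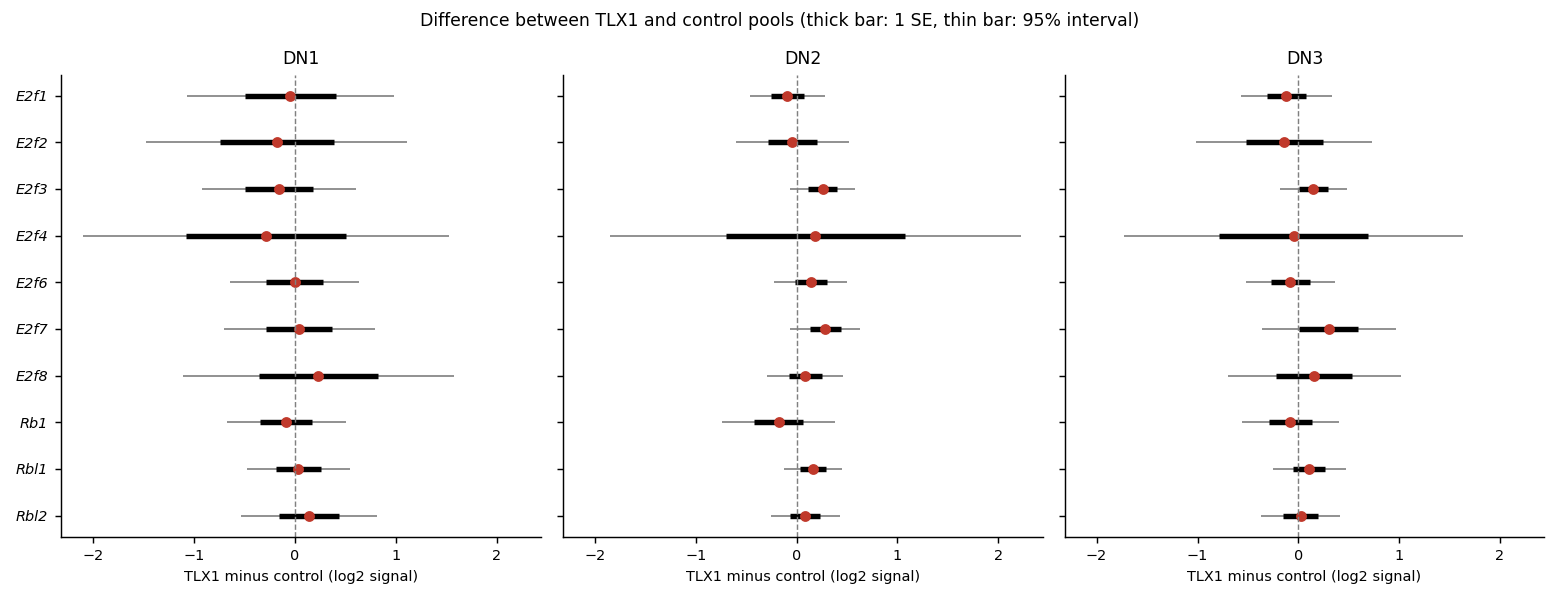
TLX1 minus control in log2 signal for each gene at DN1, DN2 and DN3 (4 TLX1 pools against 4 control pools), with the estimate as a point, 1 SE as a thick bar and the 95% interval as a thin bar. All 30 intervals include 0, and that of *E2f4* is the widest at each stage.

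The 3′ to 5′ signal difference of the array control probe sets for *Actb* and *Gapdh* is a measure of RNA integrity in log2 units. It averaged higher in control than in TLX1 pools at each stage, and the groups overlapped at DN1 and DN2. At DN1 it averaged 0.057 ± 0.075 in TLX1 pools and 0.26 ± 0.16 in control pools (SD, n = 4 pools each; exact permutation test, two-sided p = 0.0857). At DN2 it averaged 0.22 ± 0.11 in TLX1 and 0.52 ± 0.33 in control pools (exact p = 0.0571), and at DN3 0.18 ± 0.11 in TLX1 and 0.53 ± 0.030 in control pools, with no overlap (exact p = 0.0286, the smallest that 4 against 4 allows, and 0.0857 adjusted over the 3 stages). With this measure as a covariate none of the 10 genes was called at any stage, and over all probe sets 0, 1 and 0 were called at DN1, DN2 and DN3, against 1, 1 and 5 without it. The dim second probe set of *E2f3* did not overlap at DN3, with 32.3, 20.0, 33.2 and 14.2 in TLX1 pools, against 45.2, 37.6, 36.5 and 37.5 in control pools (-0.73, adjusted p 0.768). The main probe set, at 368, 373, 331 and 318 in TLX1 and 306, 262, 366 and 325 in control pools, overlapped and ran the other way, at 0.15.

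The change of the TLX1 effect between stages was also tested. By main probe set none of the 10 genes was called, and none had an unadjusted p under 0.05, where 3.60% of all probe sets did for DN2 against DN1 and 2.89% for DN3 against DN2. For DN3 against DN2 the second probe set of *Rb1* gave -1.21 (limma, unadjusted p 0.0052, adjusted p 0.9999), where the main one gave 0.10. That of *E2f3* gave -0.72 (unadjusted p 0.0380, adjusted p 0.9999), where the main one gave -0.11. For DN2 against DN1, *E2f4* had the highest value, 0.47 (SE 0.27), and *E2f3* had 0.42 (SE 0.27). No gene of the 5 lists around the family was called between TLX1 and control pools. The median difference of the mitotic list was 0.23, 0.24 and 0.13 at DN1, DN2 and DN3, with 14, 13 and 11 of its 14 genes positive, and that of the S phase list was 0.06, -0.01 and -0.06. Of all probe sets, 51.5%, 47.0% and 51.6% were positive, with medians of 0.01, -0.02 and 0.01. The median of the mitotic list varied with the alternatives, which include pools left out and covariates as well as processing. It kept its sign under all of them only at DN2. Over 20 alternatives it ran from -0.87 to 0.75 at DN1, from 0.19 to 0.34 at DN2 and from -0.04 to 0.45 at DN3. The smallest p values of the lists were those of *Cdkn1b*, the inhibitor p27, at DN3 (0.42, adjusted p 0.690), *Aurka*, a mitotic kinase, at DN2 (0.41, adjusted p 0.9996) and *Max*, a partner of MGA, at DN3 (0.50, adjusted p 0.709).

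Patterns over the 24 arrays placed the members in different company. The arrays share pools, stages and genotypes, so the correlations describe these arrays only. *E2f7* was most like *E2f8* (Pearson r of log2 signals 0.93), and the likeness was 0.92 after the mean of each stage was removed. After *E2f8*, *E2f7* was nearest to *Depdc1b* (0.905) and *Mki67*, the proliferation marker Ki-67 (0.89), and *E2f8* was nearest to *E2f7*, *Cdc25b*, a mitotic phosphatase (0.93), and *Pif1*, a DNA helicase (0.93). The nearest genes of *E2f1* were *Dnmt1*, the maintenance DNA methyltransferase, *Ezh2*, the Polycomb methyltransferase, and *Nap1l1* (0.94 each), and those of *Rbl1* were *Fen1*, the flap endonuclease of replication (0.95), *Rfc5*, of the clamp loader, and *Rnaseh2b* (0.94 each).

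*Rbl2* was most like *Gab3*, *Sorl1* and *Ctsw*, a protease of cytotoxic lymphocytes (0.99 each). *E2f3* was nearest to *Ddx1* (0.96), *E2f6* to *Btf3l4*, *Larp1* and *Pa2g4* (0.96 each), *Rb1* to *Sbk1* and *Phf20l1* (0.94 each), *E2f2* to *Cstf2* (0.90) and *E2f4* to *Sf1*, *Psmb7* and *Ppp2r1a* (0.98 each). The r values of *E2f4* span its low arrays of pool 4 in both genotypes, and were not computed without them. *E2f3* and *Rbl2* ran opposite to each other, with an r of -0.85 over the 24 arrays and -0.58 once the stage means were removed. *Rb1* and *Rbl2* had an r of 0.56 over the arrays and -0.70 without the stage means, so both were high at DN1 but differed in which pools were high within a stage.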

How the data were processed

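The deposited values were linear MAS5 intensity signals. According to the submitters' processing notes the software was the Affymetrix Expression Console, and the values have a 2% trimmed mean of 150 on each array. Detection flags are not used here. A floor of 1 replaced lower signals (4.37% to 11.3% of those on an array) before conversion to log2, and the deposited scaling was kept. Median signals ranged over the arrays of TLX1 and control pools at 19.9 to 23.5 and 18.8 to 24.3 (DN1), 15.1 to 17.4 and 15.9 to 19.2 (DN2), and 18.0 to 19.1 and 16.6 to 21.4 (DN3). The 60% of the 45037 probe sets outside the 64 array controls with the highest mean were tested (27022, mean signal at least 9.02). Of the 45037, 34945 matched 1 gene in the platform annotation, 932 several and 9160 none.

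Moderated tests were run in limma 3.58.1 (R 4.3.3) and adjusted by Benjamini-Hochberg over all 27022 probe sets, with an adjusted p under 0.05 as a call. TLX1 and control pools were compared within each stage. Stages, and the change of the TLX1 effect between them, were fitted to the 24 arrays together, blocked by pool, since the 3 stages of a pool came from the same mice. Deviations from group means correlated at 0.18 to 0.63 between stages of 1 pool (24 pairs) and at -0.41 to 0.15 between other pools of a genotype (72 pairs). The number of arrays limits the precision, and 4 pools against 4 cannot give an exact permutation p under 0.0286. The fits were tested on simulated data.

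All 10 members are named, each by its main probe set, with the 3 genes of each list with the smallest p in a comparison and the 3 genes most like each member over 24 arrays. *E2f5*, *Ccnd1*, *Ccnd2*, *Ccnd3*, *Cdkn1b* (DN2 against DN1), *Cdkn2c* and *Cdkn2d* were named after their values were seen. The members and lists were chosen with earlier results of these data known. A few listed genes are not analysed here, and the counts of a list cover its measured genes. Alternatives were other scalings (quantile, median centring), other filters, an offset of 32, other probe set rules, a covariate (sex or the 3′ to 5′ index), blocking by replicate number, each pool left out in turn, the 2 pools with the most cells outside the gates left out, and the methods' t-test.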

Additional observations from a re-analysis of the deposited data

Results flagged for a closer look

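In groups of 4 pools, 11 of the 60 combinations of member, stage and genotype had 1 array far from the other 3, by Dixon's test of the gap against the range, where chance flags about 1 in 20. *E2f4* gave 5 of them, all in pool 4: 18.2 in TLX1 DN1, 31.97 in control DN1, 21.3 in TLX1 DN2, 29.1 in TLX1 DN3 and 24.1 in control DN3. The sixth pool 4 array, of control DN2, was at 23.4. TLX1 pool 4 was also lowest at DN3 for *E2f6* (362) and *Rbl2* (422). *E2f7* (113) and *E2f8* (305) were highest in TLX1 pool 2 at DN3, and *E2f8* was highest in control pool 3 at DN3 (433). *Rbl2* was lowest in control pool 3 at DN1 (1177). TLX1 pool 2 and control pool 3 are the pools with the highest signal of later thymocyte markers.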

How the results depend on the processing

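Between DN2 and DN1, 7 members were called and 6 to 9 under the 18 alternatives. The call of *E2f7* was the one lost, without 1 of 6 pools or with no replicate block (adjusted p 0.125), and *E2f8* or *E2f4* were gained. Between DN3 and DN2, 2 members were called, against 4 with median centring (*E2f3* and *E2f8* added), 1 with the median of a gene's probe sets, 0 with no replicate block for the pool, 5 without control pool 3 and TLX1 pool 2, and 1 to 4 when 1 pool was left out (4 without control pool 3). *E2f8* was also added with the stricter filter (adjusted p 0.0358), the offset of 32 (adjusted p 0.0361) and the 3′ to 5′ index as a covariate (adjusted p 0.00852). No called member changed direction under any alternative, while values without a call changed sign 131 times over all comparisons. The cause of these changes was not tested.

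TLX1 against control gave 0 called members at each stage under all 20 alternatives, and the stage difference of the TLX1 effect gave 0 under all 18. The methods' t-test called 0 members at its thresholds and after adjustment. Over all probe sets it gave, before adjustment, 163 higher and 109 lower at DN1, then 134 higher and 260 lower at DN2, and 666 higher and 156 lower for DN3, and 0, 0 and 4 in all after it. With the replicate number as a block, TLX1 against control gave 0 called members at each stage. The numbers share no known origin between genotypes, and same-numbered pools deviated together with an r of -0.34 to 0.48 (12 pairs), other pools with -0.42 to 0.65 (36 pairs). Among same-numbered pools, those numbered 4 had the highest r, at 0.48, 0.40 and 0.37 for DN1, DN2 and DN3, and the rest had -0.34 to 0.19. Calls over all probe sets ranged over the alternatives from 12387 to 17198 (16137 as reported) between DN2 and DN1 and from 758 to 4593 (2972) between DN3 and DN2. For TLX1 against control they were 0 to 5, 0 to 11 and 0 to 7 at DN1, DN2 and DN3 (1, 1 and 5 as reported). With 4 pools a genotype, the 95% intervals of the TLX1 differences at DN1 reach 0.55 or further from 0 on the log2 scale for every member. Differences of that size in at least 1 direction are thus not excluded there. These intervals are not adjusted for the number of probe sets, and their reach is not the smallest difference that a call could find.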

Other observations

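*E2f4* divided the arrays by pool number and not by genotype or stage, a pattern seen after the values were known. On the 6 arrays of TLX1 and control pool 4 it had signals of 18.2 to 31.97, and on the other 18 arrays of 105 to 230.3, a gap of 1.71 on the log2 scale between the groups of arrays and a difference of medians of 2.63. Of 27022 probe sets, 429 (1.59%) had all 6 pool 4 arrays below the other 18, 419 (1.55%) had them above, and 57 (0.211%) had them below by at least 2 on the log2 scale between medians. Both pools numbered 4 were female, as were TLX1 pool 1 and control pool 2, in which *E2f4* was in the higher range. By the study's description, both pools numbered 4 also lay at the upper end of the ages of their genotype. The age range of TLX1 pool 2, with *E2f4* in the higher range, reached that of TLX1 pool 4. The part of age in this pattern was not tested. On the probe set of mouse *Tlx1*, TLX1 pools gave 4.51 to 11.4 and control pools 2.75 to 17.3, and no source used here says whether it reads the human transgene.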
